A study of Drosophila melanogaster with 6 samples.

Results

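The genes described here encode the stress and diuretic neuropeptides of the fly and their receptors: the peptides Crz, Dh44, Dh31, ITP, Lk and Capa, and the receptors CrzR, Dh44-R1, Dh31-R and Lkr. A gene was measured where the platform annotation gave a probe set 1 gene symbol and it was one of these; among several such probe sets the brightest on average represented the gene. In this way 9 of the 10 genes were found among 11982 genes with a named probe set, and CrzR was not analysed here. RNA came from whole heads of mated female Drosophila melanogaster of the w1118 genotype, a white-eyed laboratory strain, and each sample was hybridised to 1 Affymetrix Drosophila genome array. After 48 hours with isogenic males the females were moved to normal diet (yeast, sucrose, cornmeal and agar) or to high fat diet, made by adding 20% (w/v) coconut oil to that medium. They ate it for 7 days, most of them at 23 °C. Each diet had 3 samples, called biological replicates in the design text, and each sample pooled 25 to 50 heads. No age is given beyond the collection of virgin females at 0 to 3 days.

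Neuropeptides are cut from larger precursors inside secretory cells, packed into dense core vesicles, released into the brain or the blood, and read by G protein-coupled receptors. In the fly head, corazonin (Crz), the calcitonin-like Dh31, the corticotropin-releasing-factor-like Dh44, ion transport peptide (ITP), leucokinin (Lk) and the Capa peptides are made by small sets of brain or subesophageal neurons, so whole-head RNA averages them with all other cells. Several act as hormones on the Malpighian tubules, the renal organ of the abdomen, and Crz, Dh44, Lk and ITP are also known for roles in responses to starvation, desiccation, feeding or thirst. In whole heads, fewer cells of a type and less RNA per cell cannot be told apart.

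Markers of the labelled tissue had signal, and so did some markers of other tissue, though not all of these on every array. All 17 measured pan-neuronal genes, 5 of 5 photoreceptor genes and 5 of 5 glial genes, the glial identity factor repo among them, were above background on all 6 arrays. So were tsh and Antp, trunk patterning genes that are known from the ventral nerve cord, Antp by as little as 0.87 (log2). The trunk genes Ubx, abd-A and Abd-B were listed but not measured, and whether nerve cord tissue was present was not tested. Female germ line signal differed with diet, with a median change of -3.86 over the 13 measured genes of 14 listed. Summed over them, it was 13.99, 12.31 and 14.31 (log2) on normal diet replicates 1, 2 and 3. On high fat diet replicates 1, 2 and 3 it was 12.001, 11.97 and 11.96. Most of the high fat sums came from gus, which differed little (12.06, 11.70 and 12.17 against 11.84, 11.83 and 11.79). By contrast, osk measured 10.70, 8.70 and 11.05 against 3.76, 4.02 and 4.29. None of the 13 was higher on average on the high fat diet, and vas was below background on every array. Some digestive markers and the renal marker salt also differed, with normal diet replicate 1 the highest in those that separated. Of 6 gut genes, 5 averaged less on the high fat diet (median change -1.75). The diets did not overlap in 2 of the 6, where 9.23% of all probe sets were separated downward. These were the proteases Jon65Aiii (9.59, 3.59 and 5.95 against 2.11, 1.27 and 3.06) and betaTry (9.35, 5.23 and 7.19 against 5.09, 4.70 and 5.01). The gut list's summed signal was 12.75, 12.02 and 11.88 on the normal diet and 11.95 to 12.06 on the high fat diet. Outside normal diet replicate 1, most of this sum came from LManII, so it hardly reflects the proteases. LManII lay between 11.62 and 11.98 on all arrays and averaged more on the high fat diet (0.16). Of 4 Malpighian tubule genes, 2 averaged less and 2 more (median change -0.04). Only salt did not overlap (6.79, 4.57 and 5.74 against 2.27, 3.58 and 0.86). The tubule list's summed signal was 10.75, 10.41 and 10.37 against 10.31 to 10.53. Most of it came from Irk1 and Best2, which lay between 9.14 and 9.89 on all arrays, so it hardly reflects salt. None of the germ line, gut or tubule genes passed an adjusted p of 0.05 by limma, and no probe set did. Normal diet replicate 2, the lowest of its diet in germ line signal, correlated at 0.954, 0.952 and 0.955 with the high fat arrays and at 0.948 with each of the other normal diet arrays, across probe sets, which are not independent. Background was taken, per array, as the value that 95% of 50 control probe sets for foreign proteins stayed under. It lay between 15.2 and 21.8 signal units, and between 65.3% and 70.0% of probe sets exceeded it. For the Act5C control, the ratio of 3' to 5' signal, which reflects RNA integrity, was 20.4 on high fat diet replicate 2 and 10.5 to 13.2 elsewhere. These tissue signals were present in every comparison below, and their part in the results was not tested.

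Every measured gene of the group had signal in the head samples and, in the deposited scaling, averaged slightly more on the high fat diet. The same was true of 45.7% of all tested probe sets and of 45.1% of those above background on all arrays. All 9 lay above background on all 6 arrays, by at least 1.88 on the log2 scale. Their changes ran from 0.04 for Dh31 to 0.47 for Crz (log2, high fat minus normal diet), with a median of 0.21 against -0.03 over all 18769 tested probe sets. That direction depends on the scaling: with each array centred on its pan-neuronal genes only Crz, Lk, Dh44-R1 and Lkr stayed higher, and the means of Dh44, Dh31, ITP, Capa and Dh31-R turned lower. By limma, 0 of the 9 passed an adjusted p of 0.05 over all probe sets, where the share called was 0% in each direction. At an unadjusted p under 0.05, 1 of the 9 was higher (Crz) and 0 were lower, while 2.95% of all probe sets were higher and 4.91% lower. In 4 of the 9, Crz, Lk, Capa and Dh44-R1, all high fat values lay above all normal diet values, and 8.46% of all probe sets did the same; 0 of the 9 were separated downward, as 9.23% were. Among probe sets above background on all arrays, as these genes are, the share separated upward was 11.5%. Of the 17 pan-neuronal genes, 11 were separated in the same way.

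**Figure D1:**
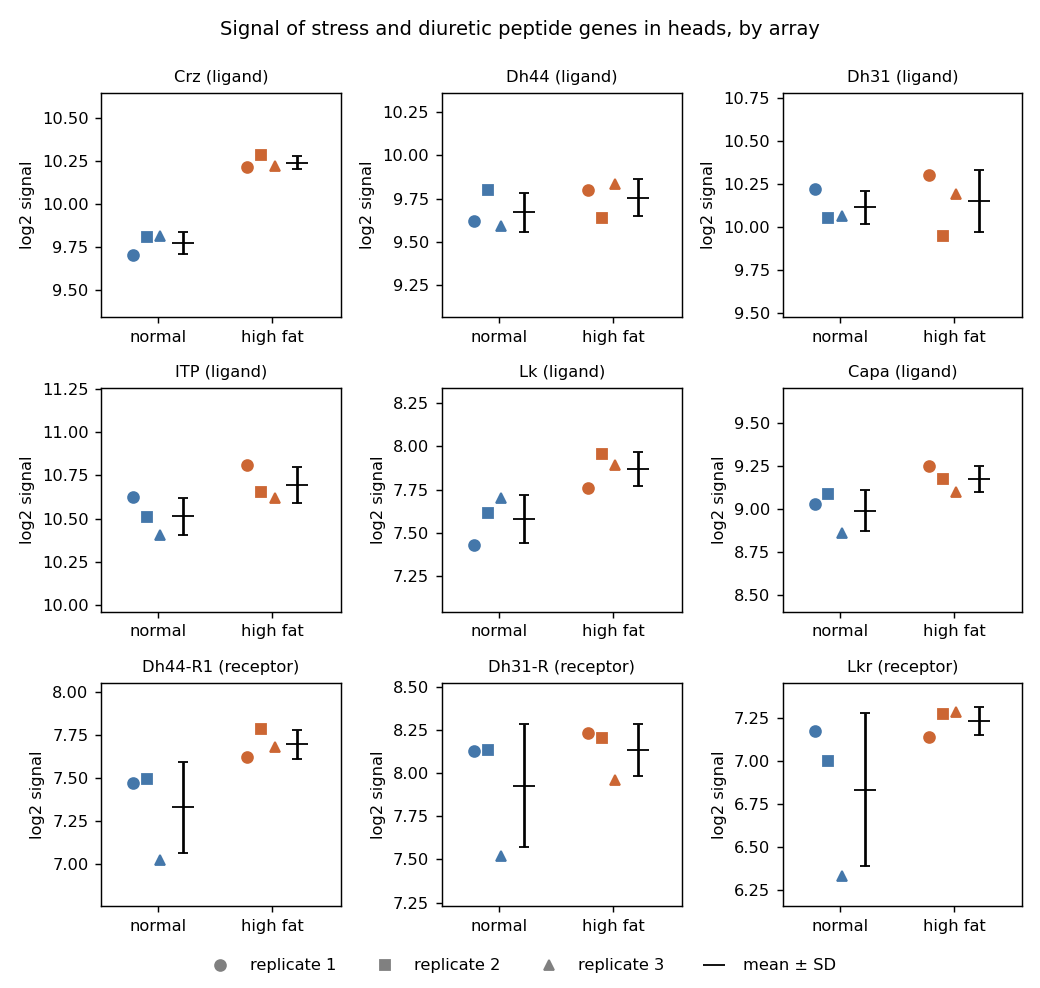
Log2 signal of each gene (vertical axes, each spanning the same range of log2 units) on the 3 normal diet and 3 high fat arrays, with replicate 1 as a circle, 2 as a square and 3 as a triangle, and the mean ± SD beside them. Crz has the clearest gap between the diets (0.40), and the receptors Dh44-R1, Dh31-R and Lkr share a low value on normal diet replicate 3.

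Corazonin differed most clearly from its own replicate spread. Crz, whose peptide is released by lateral brain neurons and is related to adipokinetic hormone, measured 9.70, 9.81 and 9.82 (log2 signal) on normal diet replicates 1, 2 and 3 and 10.22, 10.29 and 10.22 on high fat diet replicates 1, 2 and 3. All high fat values were higher than all normal diet values, with 0.40 between the nearest, and the arrays of a diet lay close together (9.78 ± 0.06 and 10.24 ± 0.04, SD, n = 3 each). The difference was 0.47 (SE 0.11, 95% interval 0.20 to 0.74), a ratio of 1.38 with an interval of 1.15 to 1.67. It ranked 215th of 18769 by p (unadjusted p = 0.00634), and limma's adjusted p was 0.550. Across the alternatives run, Crz kept its direction, its change ranged from 0.21 to 0.74 and its adjusted p from 0.136 to 0.766.

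Leucokinin and its receptor had higher means on the high fat diet, with a wide error for the receptor. Lk, which in flies drives chloride transport through the stellate cells of the tubule, measured 7.42, 7.61 and 7.70 on the normal diet and 7.76, 7.96 and 7.89 on the high fat diet. The diets did not overlap, though only 0.06 lay between the nearest arrays. The difference was 0.29 (SE 0.13, 95% interval -0.04 to 0.62; limma adjusted p = 0.610). Lkr, the leucokinin receptor, measured 7.17, 7.00 and 6.33 on the normal diet and 7.14, 7.27 and 7.28 on the high fat diet. Normal diet replicate 3 lay far below the other arrays, and replicate 1 was above the lowest high fat array, so the diets overlapped. The difference of 0.40 (SE 0.25, 95% interval -0.24 to 1.03; limma adjusted p = 0.649) was 0.14 without normal diet replicate 3.

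Of the diuretic hormone pair Dh44 and Dh44-R1, the receptor had the larger measured difference, with a wider error. Dh44, made by median neurosecretory cells of the brain, measured 9.62, 9.80 and 9.59 on the normal diet and 9.80, 9.63 and 9.83 on the high fat diet. The diets overlapped and the difference was 0.09 (SE 0.13, 95% interval -0.24 to 0.41; limma adjusted p = 0.840). Dh44-R1, a receptor for Dh44, measured 7.47, 7.49 and 7.02 on the normal diet and 7.62, 7.78 and 7.68 on the high fat diet, with no overlap and 0.13 between the nearest arrays. Its difference was 0.36 (SE 0.17, 95% interval -0.07 to 0.80; limma adjusted p = 0.610), or 0.21 without normal diet replicate 3, its lowest array. Without that array the difference of Dh44 was 0.05, and whether the receptor differed from the peptide was not tested.

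Dh31 had the smallest difference of the group in the values as deposited, though not with the arrays centred on pan-neuronal genes (-0.22). The peptide, made by clock neurons of the brain and, outside the head, by endocrine cells of the gut, measured 10.22, 10.05 and 10.06 on the normal diet and 10.30, 9.95 and 10.19 on the high fat diet. The highest and the lowest value were both from high fat arrays. The difference was 0.04 (SE 0.14, 95% interval -0.33 to 0.40; limma adjusted p = 0.948), so that the interval for the ratio, 0.797 to 1.32, takes in falls as well as rises. Without high fat diet replicate 1 the sign turned (-0.04). Dh31-R, its calcitonin-type receptor, measured 8.13, 8.14 and 7.52 on the normal diet and 8.24, 8.21 and 7.96 on the high fat diet, a difference of 0.21 (SE 0.22, 95% interval -0.35 to 0.76; limma adjusted p = 0.765). The diets overlapped, normal diet replicate 3 was again the lowest array, and without it the difference was 0.0017. A second, dimmer probe set of Dh31-R measured 6.51, 6.58 and 4.78 on the normal diet and 6.16, 6.01 and 6.29 on the high fat diet. There too normal diet replicate 3 was the lowest array, while the other normal diet arrays lay above all high fat arrays (difference 0.20, SE 0.53, limma adjusted p = 0.922).

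ITP and Capa had means that differed by the same small amount. ITP, an antidiuretic hormone of lateral brain neurons, measured 10.62, 10.51 and 10.40 on the normal diet and 10.81, 10.66 and 10.62 on the high fat diet. The diets overlapped by 0.01 between normal diet replicate 1 and high fat diet replicate 3, and the difference was 0.18 (SE 0.13, 95% interval -0.13 to 0.50; limma adjusted p = 0.666). The gene had 1 probe set, and which of its transcripts that probe set reads is not known here. The amidated and long forms of the peptide were not told apart. Capa, whose peptides act on the principal cells of the tubule, measured 9.03, 9.09 and 8.86 on the normal diet and 9.25, 9.18 and 9.10 on the high fat diet. No values overlapped, but the gap was only 0.02, and the difference was 0.18 (SE 0.12, 95% interval -0.13 to 0.49; limma adjusted p = 0.660). Without normal diet replicate 3, ITP was at 0.13 and Capa at 0.12.

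As an exact two-sided permutation test of 3 arrays against 3 cannot give a p below 0.1, it could not pass the threshold for any gene. Crz, Lk, Capa and Dh44-R1 reached that smallest p of 0.1, and the other 5 genes had exact permutation p-values of 0.2 to 0.9. By role, the 6 peptides had a median change of 0.18 (range 0.04 to 0.47) and the 3 receptors one of 0.36 (range 0.21 to 0.40); without normal diet replicate 3 these medians were 0.12 and 0.14. The peptides' SDs on the normal diet were 0.06 to 0.14 and the receptors' 0.26 to 0.45. On normal diet replicate 3 the receptors lay 0.49 to 0.70 below their own means over the 6 arrays. The median pan-neuronal gene was also lowest on that array, at -0.30 from its mean, against -0.05 and -0.03 on normal diet replicates 1 and 2 and 0.08 to 0.15 on the high fat arrays. The same array had the highest summed germ line signal (14.31) and the highest background (21.8 signal units); their part in the receptors' low values was not tested.

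**Figure D2:**
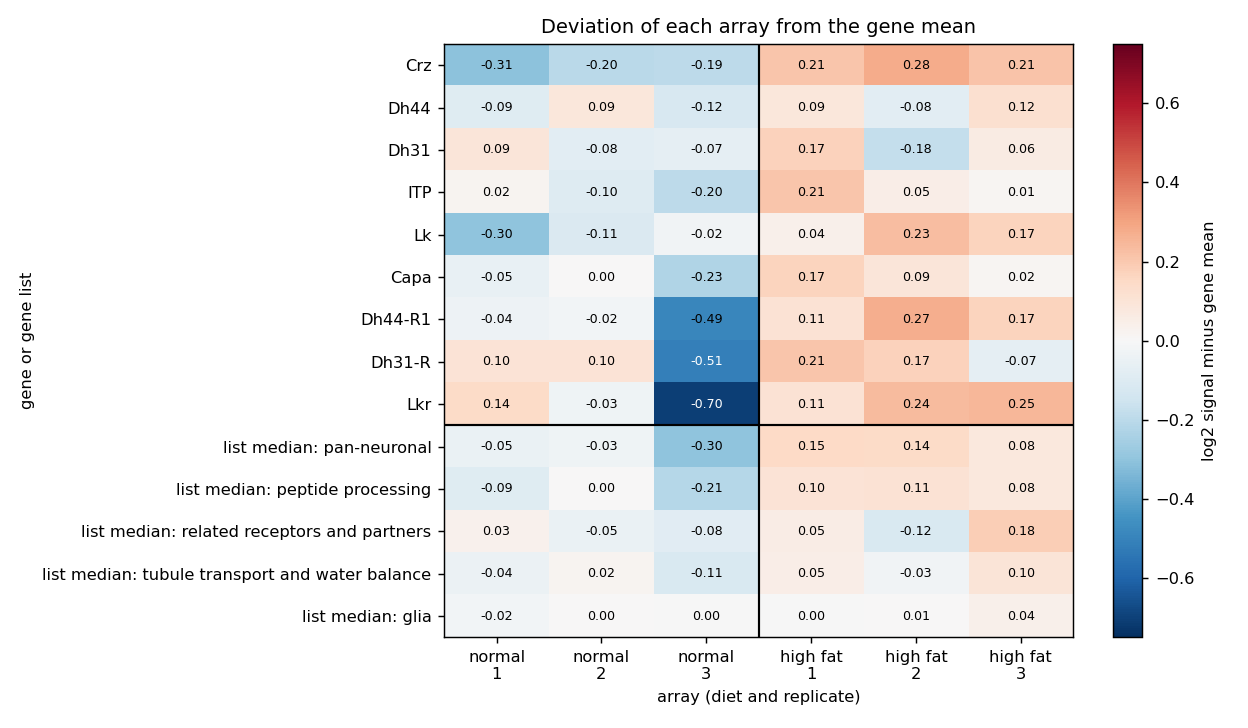
Log2 signal on each array minus the gene's mean over the 6 arrays (colour and printed value), for the 9 genes above the line and for the median gene of 5 lists below it. Normal diet replicate 3 is lowest for Dh44-R1 (-0.49), Dh31-R (-0.51), Lkr (-0.70) and the median pan-neuronal gene (-0.30), whereas Crz is low on all normal diet arrays.

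Neuronal genes in general averaged higher on the high fat diet without passing the threshold singly, so each peptide and receptor was also set against them within the array. All 17 measured pan-neuronal genes averaged more on the high fat diet, with a median change of 0.25, as did all 5 photoreceptor genes (median 0.32), while the 5 glial genes had a median of 0.01. None of these 27 differences passed the adjusted threshold. With each array centred on the pan-neuronal genes, which shifts the median over all probe sets from -0.03 to -0.29, Crz differed by 0.21 (SE 0.15, 95% interval -0.17 to 0.60; limma adjusted p = 0.487). Measured this way Crz was at -0.25, -0.17 and 0.11 on the normal diet and at 0.06, 0.13 and 0.13 on the high fat diet, so that normal diet replicate 3 lay among the high fat arrays. Lkr was at 0.15 and Dh44-R1 at 0.11, Lk at 0.04, Dh31-R at -0.04, Capa and ITP at -0.07 each, Dh44 at -0.17 and Dh31 at -0.22, and every one of the 9 intervals held 0. On this scale 0 of the 9 genes passed the adjusted threshold (0.016% of all probe sets did) and 0 separated the diets upward, where 1.85% of all probe sets did. A rise of these genes beyond that of neuronal genes in general was not detectable with 3 arrays a diet.

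**Figure D3:**
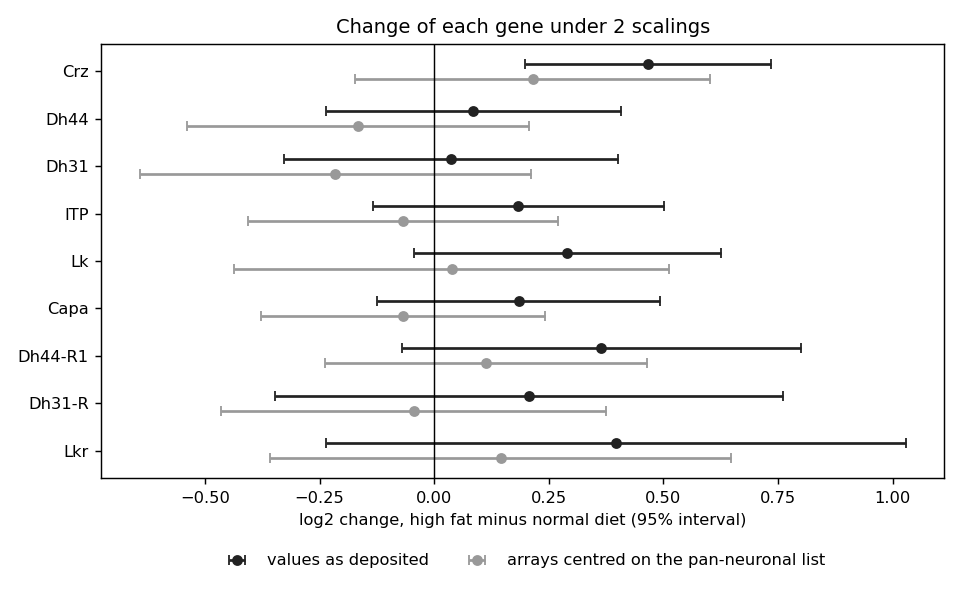
Log2 change of each gene, high fat minus normal diet, with its 95% interval from the limma fit, for the values as deposited (black) and with each array centred on the pan-neuronal genes (grey). As deposited, all 9 points lie above 0 and the interval of Crz alone leaves out 0; after centring 4 points lie above 0 and all 9 intervals hold it.

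Genes that make, release and break down peptide hormones had small positive changes for the most part, and 0 of them passed the adjusted threshold. Of 15 measured genes of 16 listed, 12 averaged more and 3 less on the high fat diet, with a median change of 0.16, or -0.09 with the arrays centred on pan-neuronal genes, when 2 of 15 were higher. Cadps, which primes dense core vesicles for release, stood apart: it measured 10.63, 10.91 and 10.51 on the normal diet and 11.29, 11.59 and 11.28 on the high fat diet. All high fat arrays were above all normal diet arrays, by 0.37 at the nearest. Its difference was 0.70 (SE 0.17, unadjusted p = 0.00796, limma adjusted p = 0.579), or 0.45 after pan-neuronal centring. The enzymes that amidate peptides differed less, Pal2 by 0.27 (SE 0.13), Phm by 0.19 (SE 0.12) and Pal1 by -0.03 (SE 0.18). The prohormone convertase amon differed by 0.11 (SE 0.12) and its helper 7B2 by 0.20 (SE 0.12). For Pal2, Phm and 7B2 the diets did not overlap, and their limma adjusted p-values were 0.612 to 0.646. For Pal1 and amon the diets overlapped. Of the 15 genes, 4 were separated upward, as were 8.46% of all probe sets and 11.5% of those above background on all arrays. The neuroendocrine transcription factor dimm exceeded background on 1 array.

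Receptors and peptides related to the group gave no common direction in the values as deposited. Of 6 measured genes of 8 listed, 4 had a higher and 2 a lower mean, with a median change of 0.07, or -0.18 after pan-neuronal centring, when 0 of 6 were higher. Dh44-R2, the other Dh44 receptor, was at 0.05 (SE 0.20). Those with the smallest p were the peptide AstC at 0.16 (SE 0.11), the adipokinetic hormone receptor AkhR at 0.25 (SE 0.17), the clock peptide Pdf at 0.09 (SE 0.15) and its receptor Pdfr, which in flies can also respond to Dh31, at -0.11 (SE 0.21). Their limma adjusted p-values were 0.655 to 0.886.

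Genes listed for tubule transport and water balance, read here in head RNA, differed little apart from Prip. Of 12 measured genes of 14 listed, 9 had a higher and 3 a lower mean, with a median change of 0.11, or -0.14 after pan-neuronal centring, when 2 of 12 were higher. Prip, a water channel, measured 9.70, 8.68 and 10.05 on the normal diet and 8.17, 8.23 and 8.10 on the high fat diet. Every normal diet array was above every high fat array, and replicate 2 was the lowest of its diet, the order of the germ line sums given above. Replicate 2 was also the lowest normal diet array for salt, Jon65Aiii and betaTry, which were highest on replicate 1. The part of germ line, tubule or gut RNA in the Prip values was not tested. Its difference was -1.31 (SE 0.37, unadjusted p = 0.0162, limma adjusted p = 0.610), and without normal diet replicate 2 it was -1.71 and passed (limma adjusted p = 0.0460; 0.890% of all probe sets were called in that fit). The exchanger Nha1 was at 0.37 (SE 0.16), the sodium pump subunit nrv3, also in the pan-neuronal list, at 0.24 (SE 0.11) and the chloride channel ClC-a at 0.31 (SE 0.20), with limma adjusted p-values of 0.610 to 0.651. In nrv3 alone of this list all high fat arrays were above all normal diet arrays, by 0.12 at the nearest.

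**Figure D4:**
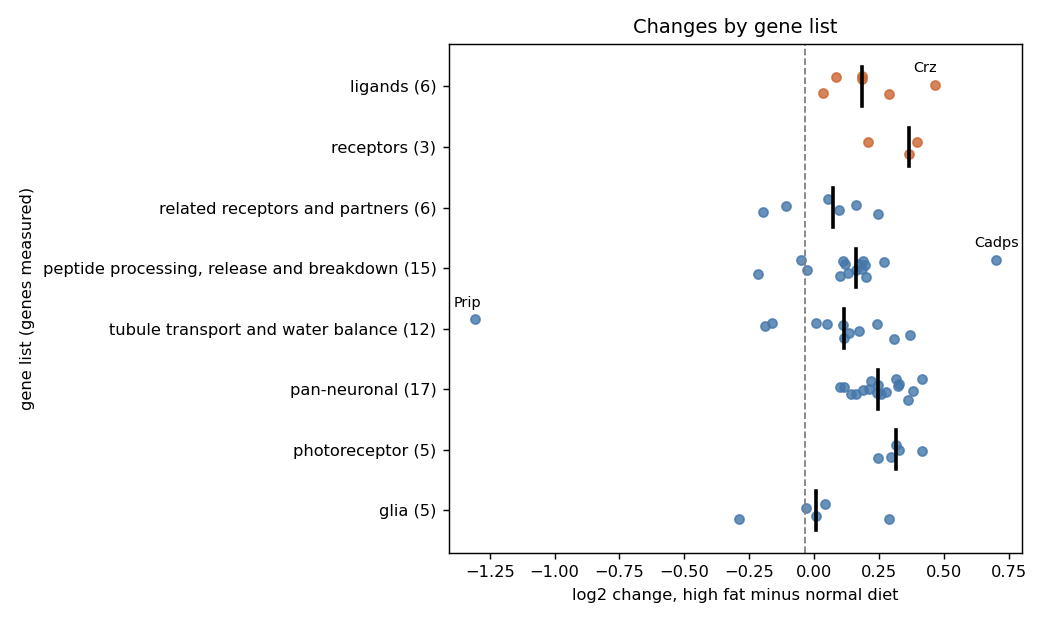
Log2 change of each measured gene, high fat minus normal diet in the values as deposited (points), by gene list, with the list's median (black bar) and the median of all tested probe sets (dashed line, -0.03). The peptides and receptors (orange; medians 0.18 and 0.36) lie in the range of the pan-neuronal genes (0.10 to 0.41) apart from Dh31 and Dh44 below it and Crz above it, and Cadps (0.70) and Prip (-1.31) lie outside their own lists.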

How the data were processed

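The authors deposited a linear signal intensity per probe set and array, made with Affymetrix Expression Console per the submitters' processing notes; neither its version nor how probes were summarised is known here. The mean without the top and bottom 2% of probe sets is 500 on every array, which shows 1 scaling factor per array; array medians still ran from 59.0 to 86.2. Such scaling can let RNA carried by one array lower its other genes. Whether it did so here, and by how much, was not tested.

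Values below 1 were set to 1 (2010 values) and log2 taken. The 183 control probe sets were left out. The remaining 18769 were fitted by limma (version 3.58.1, under R 4.3.3; lmFit, then eBayes), high fat minus normal diet, no covariates, Benjamini-Hochberg over all of them, threshold 0.05; the script was tested on simulated data. Of these probe sets 13647 have 1 gene symbol, 402 several and 4720 none here. All 9 measured genes matched the reference gene table by Entrez identifier.

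All 10 genes are named in the text. Of each related list, the up to 4 genes with the smallest unadjusted p are named. Dh44-R2, dimm, Pal1, amon and marker genes are named from the lists as well. The members and lists were chosen with earlier results of these data known. The 3 arrays per diet limit the precision, and nothing beyond the design text says that samples came from separate vials, so p-values measure only the spread between these samples, which may be technical. No pair of arrays had more than 0.00528% of values identical. Alternatives were quantile normalization, median centring, pan-neuronal centring, trend with robust moderation, a floor of 16, leaving out dim probe sets, the mean of a gene's probe sets, the replicate number as a block, and leaving out each array. No sequences are shown.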

Additional observations from a re-analysis of the deposited data

How the results depend on the processing

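In the values as deposited limma called 0 probe sets higher and 0 lower, with 1475 at an unadjusted p under 0.05. With trend and robust moderation it called 18 higher and 8 lower, leaving out dim probe sets 4 and 2, and pan-neuronal centring 3 lower; leaving out 1 array gave 0 to 16 higher and 0 to 151 lower, the upper counts without normal diet replicate 2. None of these calls was one of the 9 genes. Of the 118 alternative values of the 9 genes, 112 kept their direction and side of the threshold, 0 passed it, and 6 reversed. Pan-neuronal centring gave -0.17 for Dh44, -0.22 for Dh31, -0.0681 for ITP, -0.0678 for Capa and -0.0447 for Dh31-R, by its construction, since it takes the change of neuronal genes off each. Leaving out 1 array gave -0.0415 to 0.136 for Dh31, the lowest without high fat diet replicate 1; the cause was not tested.

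Median centring shifted the median over all probe sets from -0.03 to 0.23, and quantile normalization shifted it to 0.04; under both all 9 genes stayed higher, with medians over them of 0.48 and 0.36. The number whose diets did not overlap, recounted after the data were seen, was 8 after median centring (19% of all probe sets), 5 after quantile normalization (11.1%), 0 after pan-neuronal centring (1.85%) and 4 to 6 with 1 array left out (11.9% to 13.9%). With the replicate number as a block, Crz was at 0.47 (limma adjusted p = 0.675) and no call changed. The numbers were not taken as pairs because the labels do not say that a number marks a shared batch. Deviations of same-numbered arrays of the diets correlated at -0.07, 0.00018 and 0.03 across probe sets.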
